A study of Mus musculus with 8 samples.

Results

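The colony-stimulating factor genes were followed in primary cultured mouse microglia with and without immunoglobulin G (IgG). The group holds 7 genes, Csf1, Il34, Csf1r, Csf2ra, Csf2rb, Csf2rb2 and Csf3r, chosen by their GENCODE symbols among the 55385 rows of the count table. Of these 7 members, 6 had enough reads to be tested among 17537 genes, and Il34 did not. The RNA came from wild-type cells of neocortex and hippocampus, prepared from pooled brains of newborn (P0) mice and shaken off mixed glial flasks. At day 15 in vitro 4 cultures received 10 µg/ml IgG for 24 h, and 4 cultures labelled untreated served as controls. The labels give the control and the IgG library of each number the same date, so the libraries were compared as 4 pairs. The study's methods name PBS as the control treatment and list IgG from mouse serum, and they name C57BL/6J mice for such cultures in another experiment. Sex is not given in the labels.

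Microglia depend on the receptor CSF1R for survival and proliferation. Its ligands are colony-stimulating factor 1 (M-CSF, gene Csf1) and interleukin 34 (Il34), which neurons make in the brain. The receptor for GM-CSF joins an alpha chain (Csf2ra) to the common beta chain (Csf2rb), which the receptors for IL-3 and IL-5 share. Mice carry a further beta chain that serves IL-3 alone (Csf2rb2), and Csf3r encodes the receptor for the neutrophil growth factor G-CSF.

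Library totals ran from 21287816 to 23703216 counts, so a count of 0 allows up to 3 counts, or 0.124 to 0.147 CPM. CPM, the counts of a gene scaled to a common library size, used library sizes corrected by TMM, which evens out differences in RNA composition. Mitochondrially encoded genes took 2.32 to 2.41% of the counts in the 4 controls and 2.21 and 1.97% in IgG libraries 2 and 4. They took 4.85 and 5.59% in IgG libraries 1 and 3, which stand apart from the other 6. Each tested member is therefore also given without pairs 1 and 3, a fit added once the values were known. Of the listed microglia markers, C1qa averaged 1752 CPM and Trem2 826 CPM in the controls, whereas P2ry12 and Tmem119 were low at 6.98 and 5.09 CPM.

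No member differed between the groups after adjustment over all genes, and none met the criterion of an unadjusted p under 0.01 with an absolute log2 fold change above 0.5. With the replicate number as a blocking term in edgeR's quasi-likelihood test, 69 of 17537 genes (0.393%) passed an adjusted p under 0.05, all of them higher with IgG. Other fits with the block also called lower genes, 46 of 327 by the likelihood ratio test and 19 of 233 by DESeq2, with 71 of 376 without the filter and 36 of 190 without pairs 1 and 3. The criterion was met by 320 genes (1.82%). At an unadjusted p under 0.05, 2 of the 6 tested members passed, Csf1 lower and Csf1r higher, where 10.2% of all genes tested passed (6.35% higher and 3.85% lower). Scaled by total counts alone, the 2 that passed were both lower, Csf1 and Csf2rb (−0.19, unadjusted p 0.0361), and Csf1r stood at 0.15 with an unadjusted p of 0.116. That scaling moved the median of all genes tested to −0.11. The likelihood ratio test, DESeq2 and limma-voom gave the same counts for the members, 0 after adjustment and 2 before it. Without the block, 0 members passed either way, where 0 genes passed adjustment, 0.844% met the criterion and 7.01% had an unadjusted p under 0.05. The CPM ranges of the groups overlapped for each of the 7 members, while 4.17% of all genes tested had ranges that did not overlap.

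The largest differences split by pair. Pairs 1 and 3 had less Csf1 and Csf2ra and more Csf1r with IgG than pairs 2 and 4, while Csf2rb, Csf2rb2 and Csf3r stayed within a narrower range in all 8 libraries. Within that range the changes of Csf2rb and Csf2rb2 also split by pair, higher in pairs 1 and 3 than in pairs 2 and 4.

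**Figure D1:**
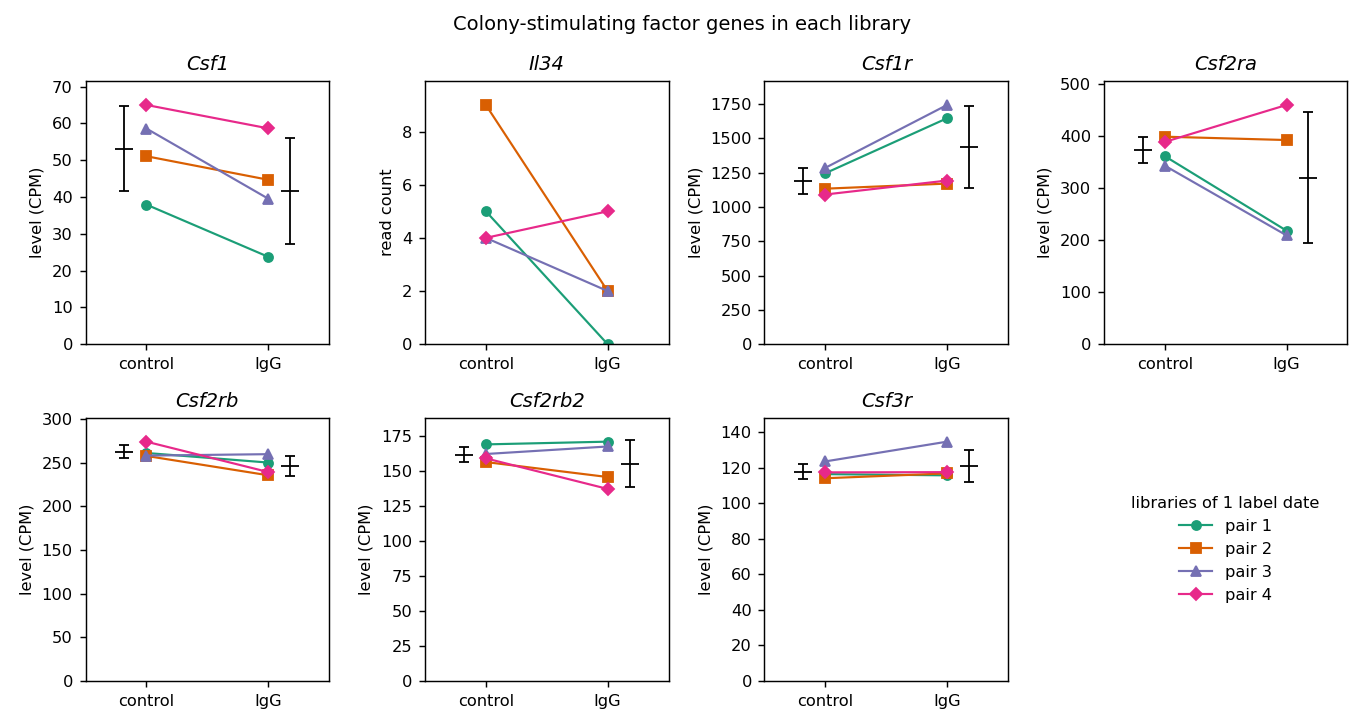
Each panel plots 1 gene in the 4 control and the 4 IgG libraries, with lines joining the libraries that share a label date; the y axis is CPM, or read counts for Il34, and starts at 0. Black bars give the mean ± SD of each group (n = 4), and the Csf2ra lines of pairs 1 and 3 fall to 218 and 209 CPM while that of pair 4 climbs to 459 CPM.

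Csf1 (ENSMUSG00000014599, chr3:107741048-107760469, minus strand, mm10) encodes the ligand that macrophage lineage cells can also make for themselves. Control libraries 1 to 4 held 37.9, 51.1, 58.6 and 65.0 CPM, and IgG libraries 1 to 4 held 23.8, 44.7, 39.6 and 58.7 CPM. Each IgG library was below the control of its date, but the groups overlapped, since IgG library 4 lay above 3 of the 4 controls. The level was 53.2 ± 11.6 CPM in controls and 41.7 ± 14.4 CPM with IgG (mean ± SD, n = 4). The log2 fold change with the block was −0.39 (SE 0.116, 95% interval −0.66 to −0.13), with an unadjusted p of 0.00936 and an adjusted p of 0.344 by edgeR.

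A lower Csf1 level in all 4 pairs is shared with 8.47% of all genes tested. The IgG level was 0.626, 0.875, 0.675 and 0.902 of the control level in pairs 1 to 4. Without pair 1 the unadjusted p was 0.0532. Without the block the log2 fold change was −0.35 (SE 0.250), with an adjusted p of 0.723. From pairs 2 and 4 alone it was −0.17 (SE 0.141, adjusted p 0.846), a smaller difference than from all pairs.

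Il34 (ENSMUSG00000031750, chr8:110741829-110805924, minus strand) was close to the limit of detection. Control libraries 1 to 4 held 5, 9, 4 and 4 reads, and IgG libraries held 0, 2, 2 and 5. The 4 controls were above the limit of 3 counts, as was only IgG library 4. The sums of 22 and 9 reads gave a ratio of 0.439 with an exact 95% interval of 0.178 to 0.993, which covers counting error only. The read counts of the groups overlapped, and Il34 did not pass the filter on low counts for the test across genes. The log2 ratio of Csf1 to Il34 per kilobase differed by 0.99 on average between IgG and control (SD 1.47, n = 4 pairs, exact sign-flip permutation p 0.375, adjusted p 0.5 over 3 ratios) with a prior count of 0.5, and by 0.41 with a prior count of 2. It differed by 2.63, 1.79, 0.05 and −0.52 in pairs 1 to 4, and its mean was 0.44 without pair 1 and 1.49 without pair 4. Its exons share 22 and 75 bases with the antisense genes Gm15894 and Gm15895, so single reads there could belong to either strand.

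Csf1r (ENSMUSG00000024621, chr18:61100598-61132149, plus strand) was the most abundant member. Controls 1 to 4 held 1246, 1134, 1286 and 1091 CPM, and IgG libraries 1 to 4 held 1647, 1171, 1744 and 1193 CPM. IgG libraries 1 and 3 lay above every control, whereas IgG libraries 2 and 4 lay within the control range. The level was 1189 ± 91.8 CPM in controls and 1439 ± 299 CPM with IgG (mean ± SD, n = 4). The log2 fold change was 0.25 (SE 0.108, 95% interval 0.01 to 0.50), with an unadjusted p of 0.0457 and an adjusted p of 0.484 by edgeR.

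Csf1r was higher with IgG in all 4 pairs, as were 10.4% of all genes tested. The ratio was 1.32 and 1.36 in pairs 1 and 3, and 1.03 and 1.09 in pairs 2 and 4. Without pair 1 or pair 3 the unadjusted p was 0.204 or 0.213. Without the block the log2 fold change was 0.27 with an adjusted p of 0.693, and without pairs 1 and 3 it was 0.09 (SE 0.154, adjusted p 0.947). Hmgxb3, a gene on the opposite strand, shares 873 bases or 15.1% of the Csf1r exons. It held 3680 control and 3520 IgG counts in all, against 111249 and 124307 for Csf1r. In these bulk cultures more cells with Csf1r and more Csf1r RNA per cell cannot be told apart, and the same holds for each other member.

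**Figure D2:**
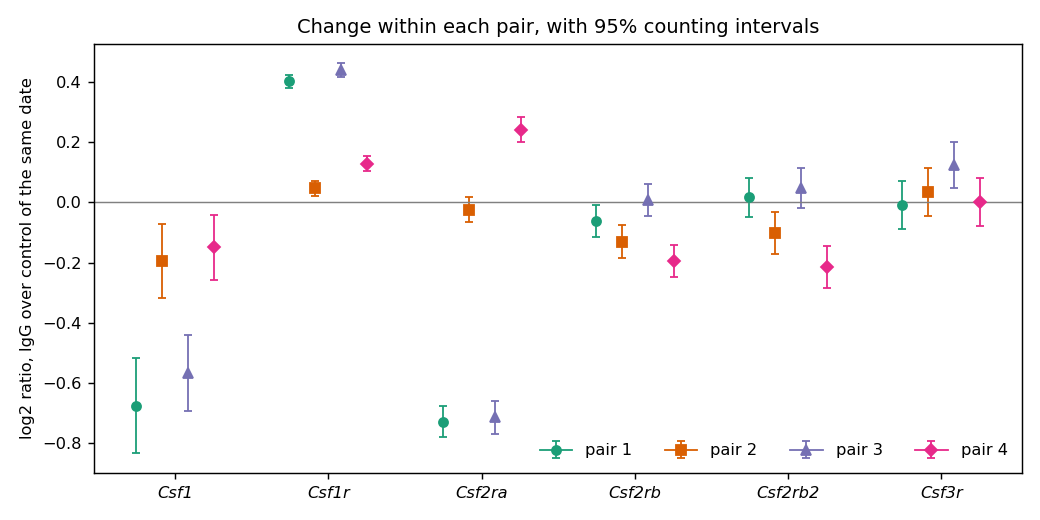
The log2 ratio of IgG over control is plotted for each of the 4 pairs and each tested member, with 95% intervals that cover counting error only. The points of pairs 1 and 3 lie apart from those of pairs 2 and 4 for Csf1, Csf1r and Csf2ra. They also lie above those of pairs 2 and 4 for Csf2rb and Csf2rb2, over a smaller range, with pair 4 at −0.20 and −0.21. The points of Csf3r are not split in this way.

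Csf2ra (ENSMUSG00000059326, chr19:61223957-61228429, minus strand), the GM-CSF-binding alpha chain, varied most between pairs. Controls 1 to 4 held 361, 399, 343 and 388 CPM, and IgG libraries 1 to 4 held 218, 392, 209 and 459 CPM. IgG libraries 1 and 3 were below all controls, IgG library 2 was inside their range and IgG library 4 was above it. The SD was therefore 25.4 CPM around a mean of 373 in controls and 126 CPM around a mean of 320 with IgG (n = 4). The log2 fold change over the 4 pairs was −0.31 (SE 0.172, 95% interval −0.70 to 0.09), with an unadjusted p of 0.113 and an adjusted p of 0.564 by edgeR.

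Within pairs, the IgG level of Csf2ra was 0.604 and 0.610 of the control level in pairs 1 and 3. It was 0.984 and 1.18 of it in pairs 2 and 4. The SD of the 4 within-pair log2 changes was 0.491, larger than in 91.6% of 11928 genes with at least 5 CPM, whose median was 0.227. Without pairs 1 and 3 the log2 fold change of Csf2ra turned to 0.11 (SE 0.147, adjusted p 0.927). Without pair 4 it was −0.51 (SE 0.144, unadjusted p 0.00756, adjusted p 0.132), the only leave-out at which a member met the criterion.

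The mitochondrial share was high in the same IgG libraries, 1 and 3, in which Csf2ra was low. The longest Csf2ra transcript also has a GC content of 57.8%, above that of 89.3% of the genes tested. With trends on exon length and GC content removed from each library, the log2 fold change was −0.22 (SE 0.104, adjusted p 0.372). With the mitochondrially encoded genes left out of the counts, the log2 fold change was −0.30 (SE 0.170, adjusted p 0.563), close to the −0.31 with them. This takes their counts out of the scaling only, and any further part of the mitochondrial share was not tested.

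Csf2rb (ENSMUSG00000071713, chr15:78325752-78353847, plus strand), the common beta chain, held 261, 258, 258 and 274 CPM in controls 1 to 4. IgG libraries 1 to 4 held 250, 235, 260 and 239 CPM. Values with IgG were lower in 3 of 4 pairs, but IgG library 3 lay within the control range. The log2 fold change was −0.09 (SE 0.086, 95% interval −0.29 to 0.10, adjusted p 0.693 by edgeR). Without pairs 1 and 3 it was −0.16 (SE 0.144, adjusted p 0.863).

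Csf2rb2 (ENSMUSG00000071714, chr15:78282507-78305721, minus strand), the IL-3 beta chain, held 169, 156, 162 and 159 CPM in the controls. The IgG libraries held 171, 146, 168 and 137 CPM, lower in pairs 2 and 4 and higher in pairs 1 and 3. The log2 fold change was −0.06 (SE 0.089, 95% interval −0.27 to 0.14, adjusted p 0.808), and −0.16 (SE 0.142, adjusted p 0.867) without pairs 1 and 3. The SD of its within-pair changes was 0.119 and that of Csf2rb 0.088, below the median of 0.227 over all genes compared.

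The beta chains lie next to each other on chromosome 15 in opposite orientation and are near-identical copies. Their coding sequences of 2688 and 2634 bases share 95.2% of 2628 aligned bases. Of the 100-base windows in the coding sequence, 11.0% of those in Csf2rb and 11.3% of those in Csf2rb2 occur in the other gene without a mismatch, and reads from them could be counted for either gene or left out. Of 1039 gap-free coding stretches of 120 bases that lie in 1 exon of each gene, 225 have no mismatch. One of these is shown with the stretch that differs most, because they set where the genes' reads can be told apart. Capitals mark the 16 mismatched bases, and the strands read 5′ to 3′ in mm10. The identical pair is in exon 15 of Csf2rb (chr15:78348577-78348696, plus) and exon 14 of Csf2rb2 (chr15:78284752-78284871, minus). The differing pair is in exon 5 (chr15:78338867-78338986, plus) and exon 4 (chr15:78294345-78294464, minus).
Csf2rb and Csf2rb2, identical stretch: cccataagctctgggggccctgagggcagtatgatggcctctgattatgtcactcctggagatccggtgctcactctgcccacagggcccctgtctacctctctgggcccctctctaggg
Csf2rb, differing stretch: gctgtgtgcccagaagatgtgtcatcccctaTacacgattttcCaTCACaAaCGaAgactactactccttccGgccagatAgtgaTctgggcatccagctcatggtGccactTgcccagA
Csf2rb2, differing stretch: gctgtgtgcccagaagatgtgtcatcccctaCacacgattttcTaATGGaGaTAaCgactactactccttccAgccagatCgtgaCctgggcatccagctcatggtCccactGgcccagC

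The ratio of Csf2rb to Csf2rb2 was close to 1 in all 8 libraries when counts were divided by the merged exons of 7277 and 4740 bases. By the longest transcripts of 4900 and 4740 bases, Csf2rb was the higher, at 53.6 against 34.1 CPM per kilobase in controls and 50.2 against 32.8 with IgG, so the size of the ratio rests on the length used, and its change with IgG does not. By merged exons the ratio was 1.01, 1.07, 1.04 and 1.12 in controls 1 to 4 and 0.952, 1.05, 1.01 and 1.13 with IgG. The log2 ratio changed by −0.03 on average (SD 0.039, n = 4 pairs, exact permutation p 0.25, two-sided, adjusted p 0.5). The smallest p that 4 pairs can give is 0.125. Small miRNA genes of 62 bases lie wholly inside an exon of each beta chain, Mir7676-2 in Csf2rb and Mir7676-1 in Csf2rb2. The table lists 2383 control and 1638 IgG counts under Mir7676-2, and 710 and 549 under Mir7676-1, whose reads cannot be told apart from those of the host exons.

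The balance of the GM-CSF receptor chains varied far more. The ratio of Csf2rb to Csf2ra per kilobase was 0.285, 0.255, 0.297 and 0.278 in the controls. With IgG it was 0.453, 0.237, 0.490 and 0.205, so pairs 1 and 3 were above all controls and pairs 2 and 4 below all of them. The log2 ratio changed by 0.67, −0.11, 0.72 and −0.44 in pairs 1 to 4, a mean of 0.21 with an SD of 0.575 (exact permutation p 0.5, adjusted p 0.5). The direction thus depended on the pair.

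**Figure D3:**
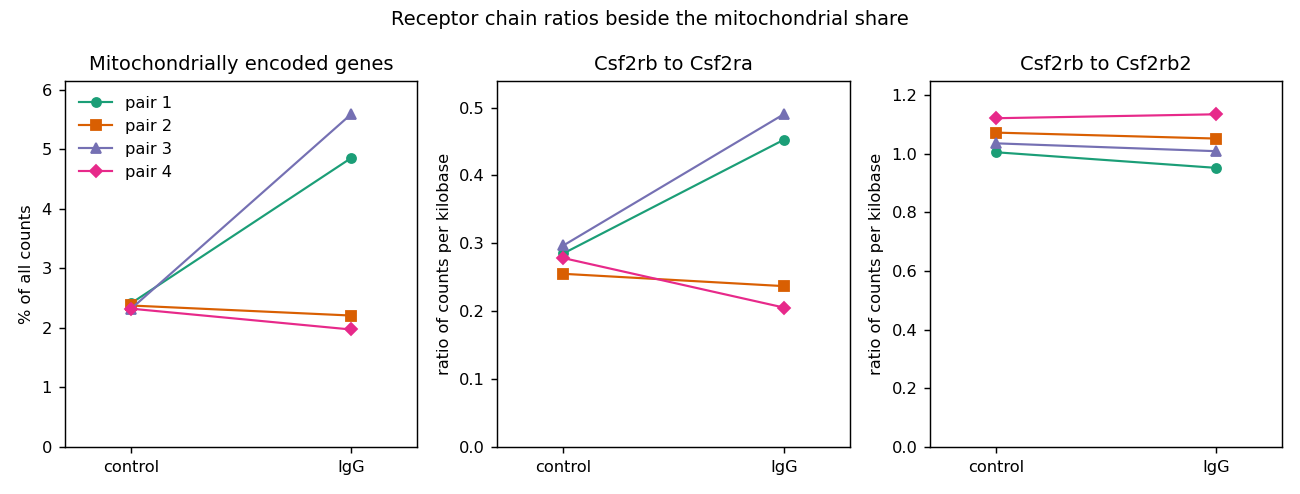
Points show 1 library each, and lines join libraries of 1 label date. The left panel gives the share of counts on mitochondrially encoded genes in percent, the middle and right panels the ratios of counts per kilobase of exon, with every axis from 0; the libraries with 4.85 and 5.59% in the left panel are those with ratios of 0.453 and 0.490 in the middle panel.

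Csf3r (ENSMUSG00000028859, chr4:126024550-126044440, plus strand), the G-CSF receptor, had the smallest spread of within-pair changes among the tested members. Controls held 116, 114, 124 and 117 CPM, and IgG libraries held 116, 117, 135 and 117 CPM. IgG library 3 was the highest of the 8, and the other 3 IgG libraries were within the control range. The log2 fold change was 0.04 (SE 0.083, 95% interval −0.15 to 0.23, adjusted p 0.882), and 0.02 (SE 0.142, adjusted p 0.990) without pairs 1 and 3. The SD of its within-pair changes, 0.060, was larger than in only 3.45% of the genes compared. Of 11 neutrophil markers, 5, among them Ly6g and S100a9, had no read in any library. The list summed to 1.53 to 2.51 CPM in controls and 2.01 to 3.37 CPM with IgG, far below Csf3r itself.

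Levels of different genes were compared per kilobase of exon. In the controls Csf1r stood at 206 ± 15.9 CPM per kilobase, Csf2ra at 130 ± 8.86, Csf2rb at 36.1 ± 1.06, Csf2rb2 at 34.1 ± 1.15, Csf3r at 32.6 ± 1.12, Csf1 at 10.1 ± 2.20 and Il34 at 0.122 ± 0.058 (mean ± SD, n = 4). The range of Csf2rb2 overlapped those of Csf2rb and Csf3r, so its place between them is not set by these lengths, whereas the control ranges of Csf2rb (35.4 to 37.7) and Csf3r (31.6 to 34.2) did not overlap. By the longest transcripts the control means were 253 for Csf1r, 163.7 for Csf2ra, 53.6 ± 1.57 for Csf2rb, 34.1 ± 1.15 for Csf2rb2, 33.8 ± 1.16 for Csf3r, 12.7 for Csf1 and 0.133 for Il34, which sets Csf2rb further from Csf2rb2 and keeps the order. By merged exons Csf1r, Csf2ra, Csf1 and Il34 were each apart in range from their neighbours in this order. With IgG the means were 249, 111, 33.8, 32.8, 33.6, 7.89 and 0.053 in the same sequence of genes, and Csf2rb2 again overlapped both of its neighbours. The ligand Csf1 was thus present at a lower level than its receptor in all 8 libraries, and Il34 was lower still.

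**Figure D4:**
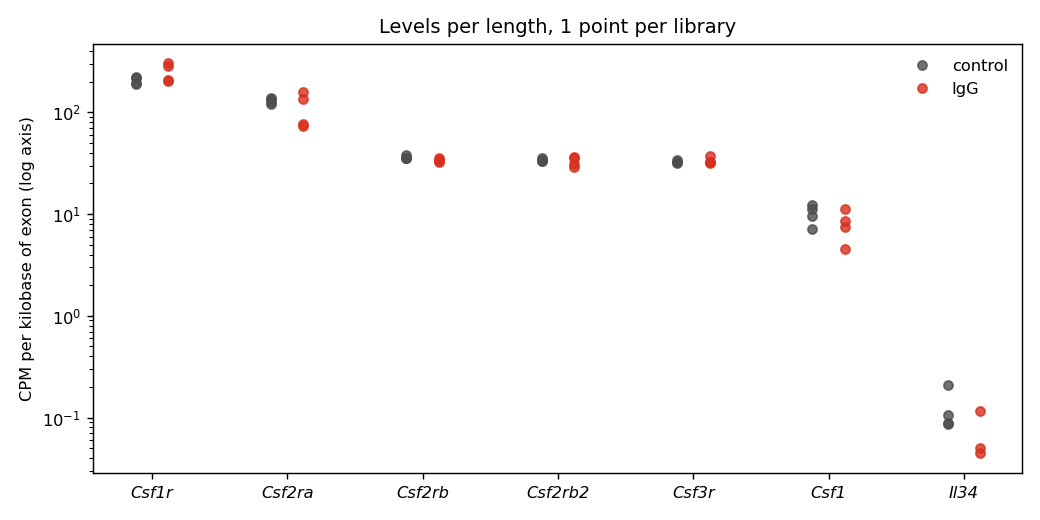
CPM per kilobase of exon is plotted on a log axis, 1 point per library, for the 7 members in the order of their control means. The points span from about 302 for Csf1r to 0.044 for Il34, and the Il34 value of IgG library 1, which is 0, is not drawn.

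The partner cytokines Csf2, Csf3, Il3 and Il5 were almost without reads. Csf2 (GM-CSF) had 2 reads, both in control library 4. Csf3 (G-CSF) had 0, 2, 1 and 1 reads in controls and 0, 1, 0 and 2 with IgG. Il3 and Il5ra (the IL-5 alpha chain) had 0 reads in all 8 libraries, which allows up to 0.124 to 0.147 CPM, and Il5 had 1 read in each group. Flt3, a receptor of the Csf1r family, had 2 reads in each group.

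Il3ra, the alpha chain of the IL-3 receptor, had the pattern of Csf2ra. It held 42.2, 54.9, 41.8 and 53.9 CPM in controls and 27.6, 50.8, 23.7 and 67.0 CPM with IgG, lowest in IgG libraries 1 and 3. Its log2 fold change was −0.30 (SE 0.178, adjusted p 0.579 by edgeR). Across the 8 libraries the log2 CPM of Il3ra and Csf2ra had a Pearson r of 0.98, and Csf1r and Csf2ra one of −0.95. These libraries are paired by date and include IgG libraries 1 and 3, so the values describe these libraries only.

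Of the other partners, the proteoglycan Sdc1 was lower with IgG, at 32.1 ± 2.78 against 26.5 ± 2.34 CPM (log2 fold change −0.28, unadjusted p 0.0247, adjusted p 0.439), and its groups did not overlap. Ptprz1, a phosphatase that binds IL-34, stood at 45.9 and 42.3 CPM (log2 fold change −0.07, adjusted p 0.897). Kitl and Flt3l had log2 fold changes of 0.19 and −0.08, and Kit averaged 4.39 and 4.38 CPM, with adjusted p values of 0.718 or more.

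Genes most like each member over the 8 libraries were taken from 10536 protein-coding genes. Their r values are the highest of that many, and IgG libraries 1 and 3 are among the libraries. The values describe these libraries only, and shared regulation was not tested. For Csf1 they were Fam20c, Thtpa and Atp1b1, with Pearson r of 0.97 to 0.99, and for Csf1r Polr3b, Atxn1 and Cyb5r4 at 0.99. For Csf2ra they were Ypel3, Isca2 and Cdkn2a, each close to 1.00. Csf2rb was closest to Fosl2, Klhl11 and Fbxo32 (0.91 to 0.95), Csf2rb2 to Rin2, Ythdc1 and Gm14410 (0.97 to 0.98) and Csf3r to B930094E09Rik, Ccdc80 and Rbm4b (0.90 to 0.92). Neither Csf2rb nor Csf2rb2 was among the 3 closest genes of the other, and their own r was 0.65.

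Downstream of CSF1R, 25 signalling genes (kinases, adaptors, phosphatases, ubiquitin ligases and others) were all tested. Their median log2 fold change was 0.04, against −0.01 over all genes tested. It was 0.14 without pair 4 and −0.06 with total counts alone, where all genes stood at −0.11. None passed adjustment or the criterion, and 5 passed an unadjusted p under 0.05, all higher, where 6.35% of all genes were higher at that threshold. Among them were the kinase Lyn (197 to 262 CPM, log2 fold change 0.39, adjusted p 0.202), the PI3-kinase subunit Pik3cg (70.2 to 100.4 CPM, 0.48, adjusted p 0.387) and the phosphatases Inpp5d (0.27) and Ptpn6 (0.22). Inpp5d and Ptpn6 were named after their values were seen. The median of the 25 genes within pairs 1 to 4 was 0.16, 0.04, 0.18 and 0.01, larger in pairs 1 and 3. Pik3cg changed by 0.80, 0.28, 0.88 and −0.04 and Inpp5d by 0.43, 0.22, 0.40 and 0.01 on the log2 scale.

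Downstream of the beta chains and CSF3R, the median log2 fold change over 20 genes was 0.08, and −0.02 with total counts alone. The criterion was met by 2 of them, both higher, as by 1.48% of all genes tested. One of them, the survival kinase Pim2, averaged 4.26 ± 0.281 CPM in controls and 7.21 ± 1.24 CPM with IgG, and was higher in 4 of 4 pairs (log2 fold change 0.75, SE 0.153, adjusted p 0.121). Its groups did not overlap, and without the block its adjusted p was 0.491. Socs1, an inhibitor of JAK kinases named after its values were seen, averaged 2.46 and 1.45 CPM (−0.77, unadjusted p 0.0206, adjusted p 0.413). Without the block, 1 higher and 1 lower gene of this list met the criterion, as did 0.844% of all genes tested. Socs1 met it there (−0.76, unadjusted p 0.00945 and adjusted p 0.692 by edgeR), and its groups did not overlap.

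None of 16 transcription factors of Csf1r and macrophage identity passed adjustment or the criterion, and their median was −0.0026. At an unadjusted p under 0.05, 4 passed, where 10.2% of all genes did, Ets2 (0.25) and Maf (0.24) higher and Egr2 and Bhlhe40 (−0.27) lower. Ets2, Maf and Bhlhe40 were named after their values were seen. The largest absolute changes were those of Egr2 (90.1 to 68.9 CPM, log2 fold change −0.39, adjusted p 0.151, lower in 4 of 4 pairs) and Batf3 (4.66 to 3.74 CPM, −0.37, adjusted p 0.622). Among 6 genes around the shedding and turnover of CSF1R, which include the protease Adam17, its inhibitor Timp3, the ubiquitin ligase Cbl and the deubiquitinase Usp8, none passed an unadjusted p under 0.05. The largest absolute changes there were −0.15 for Timp3 and −0.08 for Rhbdf2.

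Of the microglia markers, 10 of 11 were tested and 2 passed adjustment with the block, both higher with IgG, Fcrls (log2 fold change 0.83, adjusted p 0.0329) and Aif1 (0.69, adjusted p 0.0331). Over all genes tested 0.393% passed. At an unadjusted p under 0.05, 5 of the 10 passed, all higher, where 6.35% of all genes were higher. The median log2 fold change of the list was 0.26, against −0.01 over all genes. The adjusted p values of Fcrls and Aif1 without the block were 0.634 and 0.615. Among markers of other cells, the 8 oligodendrocyte lineage genes summed to 1132, 1726, 1172 and 1564 CPM in controls 1 to 4 and 972, 1622, 986 and 1517 CPM with IgG. The 8 astrocyte genes summed to 171 to 196 CPM in controls and 149 to 191 CPM with IgG. The 6 neuron genes summed to 42.5 to 65.2 and 36.9 to 53.6 CPM. All 3 sums were lower in each IgG library than in the control of its date, as Csf1 was. The border-associated macrophage genes summed to 781 to 886 CPM in controls and 817 to 1153 CPM with IgG, and the microglia markers to 5998 to 6559 and 6572 to 7238 CPM. With TMM scaling both sums were higher with IgG in each pair, as Csf1r was, and the microglia sums of the groups did not overlap. The TMM factors were 0.913 and 0.927 in IgG libraries 1 and 3 and 1.02 to 1.04 in controls. Without these factors the microglia sums of pairs 1 and 3 are lower with IgG, and the groups overlap. With total counts alone the median log2 fold change was 0.16 for the microglia list and 0.08 for the border-associated macrophage list. What part these cells have in the Csf1 and Csf1r values was not tested.

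Among the markers of other cells, Cbr2 (log2 fold change 1.23, adjusted p 0.220) and Cdh5 (0.98, adjusted p 0.221) met the criterion at means under 2 CPM. Ranges of the summed CPM were 3.03 to 4.94 in controls and 3.32 to 4.39 with IgG for monocyte and dendritic cell markers, and 4.94 to 8.44 and 6.20 to 8.39 for fibroblast and mural markers. They were 129.6 to 167.5 and 123.3 to 138.9 for endothelial markers. The 2 largest log2 fold changes were 0.52 for Mmp8 and 0.34 for S100a8 among neutrophil markers, and 1.00 for Xcr1 and −0.76 for Ccr2 among monocyte and dendritic cell markers. They were −0.32 for Aldoc and 0.22 for Aldh1l1 in astrocytes, −0.50 for Olig2 and −0.27 for Mbp in the oligodendrocyte lineage, 0.44 for Col1a1 and 0.21 for Acta2 in fibroblast and mural cells, and −0.72 for Snap25 and −0.49 for Rbfox3 in neurons. None of these passed adjustment.

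**Figure D5:**
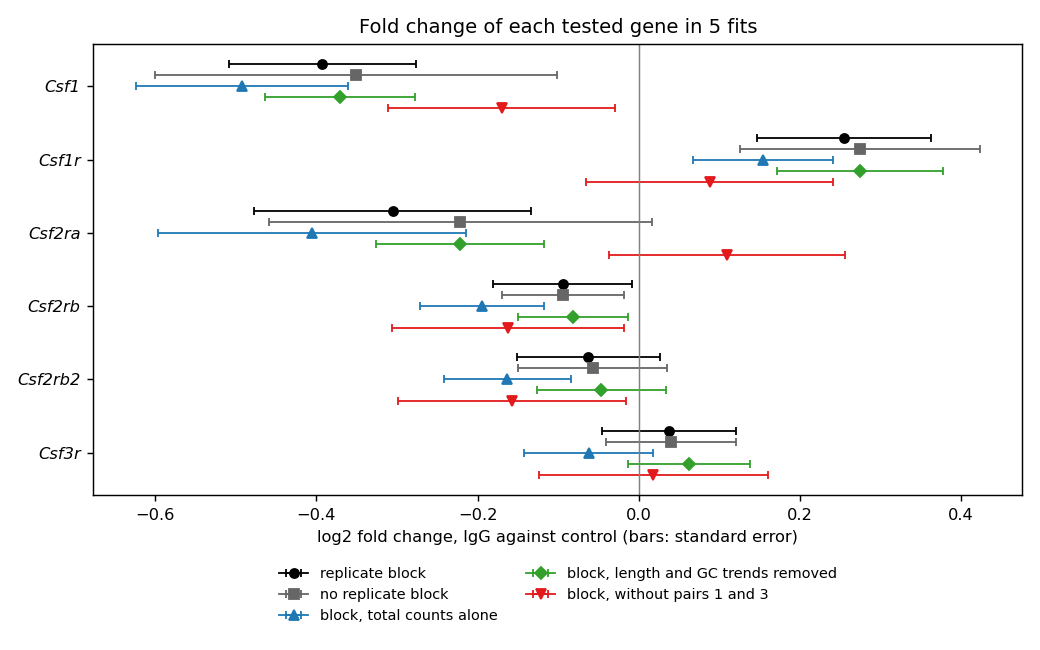
Points give the log2 fold change of each tested member in 5 fits, with bars of 1 standard error. The fit from pairs 2 and 4 alone, in red, lies nearer to 0 than the fit of all pairs for Csf1 and Csf1r and on the other side of 0 for Csf2ra, at 0.11 against −0.31.

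The promoters of Csf1 and Csf2ra are shown because these members had the largest absolute changes. The 250 bases before the start come from RefSeq on GRCm38.p6, for Csf1 chr3:107760470-107760719 and for Csf2ra chr19:61228419-61228668, both on the minus strand. Capitals mark the GC box GGGCGG, or its reverse complement, which is in 32.7% of 32851 promoters of this length. It matched at −51 to −46 and −41 to −36 in Csf1 and at −102 to −97 in Csf2ra.
Csf1 promoter: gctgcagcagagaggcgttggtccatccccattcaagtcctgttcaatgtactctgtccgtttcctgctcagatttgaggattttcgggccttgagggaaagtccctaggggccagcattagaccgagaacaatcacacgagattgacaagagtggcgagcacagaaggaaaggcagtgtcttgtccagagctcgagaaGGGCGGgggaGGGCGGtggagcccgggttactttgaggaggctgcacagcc
Csf2ra promoter: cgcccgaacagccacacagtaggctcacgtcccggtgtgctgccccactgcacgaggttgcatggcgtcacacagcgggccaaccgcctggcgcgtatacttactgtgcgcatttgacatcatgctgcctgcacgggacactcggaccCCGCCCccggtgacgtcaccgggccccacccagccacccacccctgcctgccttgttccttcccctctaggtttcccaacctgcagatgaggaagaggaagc

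Other letters searched on both strands were TTCNNNGAA for STAT factors, GAAANNGAAA for the interferon-stimulated response element, GAGGAAGT for PU.1, CCAAT and TATAAA. They are in 7.02, 2.98, 2.44, 33.8 and 12.4% of promoters. None was in the Csf1 and Csf2ra windows or in that of Csf3r. The Csf2rb2 window (chr15:78305722-78305971, minus strand) held 1 match to the STAT letters, TTCTGAGAA, at −15 to −7. A match or its lack describes the letters of these windows only. Of the 7 members, 4 had an entry in the promoter table.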

How the data were processed

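PolyA RNA of 8 microglia cultures was sequenced, 4 untreated and 4 with IgG. The authors deposited whole-number read counts per Ensembl gene, without normalization. The submitters' processing notes name HISAT2 2.2.1, SAMtools 1.12, Picard 2.26.3, featureCounts, R 4.1.2 and edgeR 3.36.0 on GRCm38. The annotation, use of strand and reads with several alignments are not given in the sources used here. Symbols, lengths and coordinates came from GENCODE M21 (mm10), which holds 55144 of the identifiers.

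Counts were scaled with TMM, filtered with filterByExpr and compared by quasi-likelihood in edgeR 4.0.16 (R 4.3.3) with the group and the replicate number as terms and Benjamini-Hochberg adjustment over 17537 genes. Ratios used a prior count of 0.5 and an exact sign-flip permutation test. The replicate number entered as a block because the labels pair the libraries by date. After subtraction of the group means, libraries of one number correlated at 0.468, 0.429, 0.280 and 0.325 across 11928 genes, against −0.384 to 0.278 for other libraries. Beyond the dates nothing says how far cultures were independent, so p-values measure the spread between these cultures. No pair of libraries within a group agreed within sampling noise (chi-square per degree of freedom at least 5.00).

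The members and lists were chosen with earlier results of these data known. Genes named were all members and partners, list genes past adjustment or the criterion and otherwise the 2 with the largest absolute change, and the 3 genes most like each member with at least 5 CPM. Exceptions are stated, and some genes that the rule covers are not reported here. The test was tested on simulated data. Alternatives were the fit without the block, the likelihood ratio test, DESeq2 1.42.0, limma-voom (limma 3.58.1), other scalings and filters, the longest transcript as length, trends on length and GC content removed (lowess, span 0.3), and each library or pair left out. Intervals on reads and limits from 3 counts cover counting error only.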

Additional observations from a re-analysis of the deposited data

Results flagged for a closer look

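The Csf3r level of IgG library 3, 134.6 CPM (134.638), stood apart from the other 3 IgG libraries, which lay between 115.7 and 117.5 CPM. The gap was 0.905 of the group's range, above Dixon's 95% critical value of 0.829 for 4 samples. It was 1 of 18 groups of values tested, and chance marks about 1 in 20. The control library of the same date was also the highest of its group, at 123.5 CPM.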

How the results depend on the processing

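No member passed an adjusted p under 0.05 in any of 25 alternatives, and the adjusted p ranged from 0.101 upwards for Csf1, from 0.181 for Csf1r and from 0.132 for Csf2ra. Without the replicate block, members at an unadjusted p under 0.05 fell from 2 to 0, genes past adjustment from 69 to 0 and genes at the criterion from 320 to 148 (1230 genes had an unadjusted p under 0.05). Genes past adjustment numbered 327 by the likelihood ratio test, 233 by DESeq2, 37 with total counts alone, 376 with no filter, 213 with length and GC content trends removed and the block (0 without the block, where the criterion gave 145) and 190 without pairs 1 and 3. Leaving out 1 pair gave 0 to 182, and leaving out 1 library without the block gave 0, or 6 without IgG library 4. The criterion gave 528 by the likelihood ratio test, 648 with no filter and 215 to 762 with 1 pair left out. With 1 library left out and no block it gave 140, 93, 112 and 89 without controls 1 to 4, and 88, 348, 87 and 610 without IgG libraries 1 to 4. Without IgG library 2 these were 184 higher and 164 lower. Scaling by total counts alone moved the share of higher genes at the criterion from 81.2 to 55.1%. Members at the criterion numbered 0 to 1 on leaving out pairs or libraries, the 1 being Csf2ra without pair 4. Members at an unadjusted p under 0.05 numbered 1 by upper quartile scaling and with at least 10 counts in every library, 3 with no filter, 0 with trends removed and no block, 0 without pairs 1 and 3, and 0 to 3 on leaving out pairs or libraries. Directions reversed for Csf2ra without pairs 1 and 3 (0.11), and for Csf3r with total counts alone (−0.062), upper quartile scaling (−0.00020) and without IgG library 3 and the block (−0.013). The causes were not tested. At this depth Il34, Csf2, Csf3, Il3 and Il5 had too few reads for the test across genes.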
